A study of Mus musculus with 24 samples.

Results

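The Mir212/Mir132 locus gives 4 mature microRNAs (miRNAs), listed as mmu-miR-132-3p and mmu-miR-132-5p from one hairpin and mmu-miR-212-3p and mmu-miR-212-5p from the other, and these were taken by name from the 1908 mature miRNAs counted in mouse liver. All 4 were among the 421 miRNAs with enough counts to be tested. Small RNA was sequenced from 24 liver samples of C57Bl/6J mice in 3 groups of 8 libraries. AM132 livers came from mice on a high fat diet for 11 weeks (diet-induced obesity), injected intravenously on 3 consecutive days with 3.3 mg/kg of a 16-base oligonucleotide, protected by locked nucleic acid (LNA) and complementary to mature miR-132. AM608 livers came from obese mice on the same diet and schedule, given an LNA oligonucleotide of 15 bases against miR-608, a primate miRNA without a predicted complementary sequence in mice. RCD livers came from uninjected, age-matched mice on regular chow. Obese livers were taken 7 days after treatment. No group was both obese and uninjected, so AM132 against AM608 compares 2 oligonucleotides, and in AM608 against RCD diet and injection cannot be told apart. The labels number the samples without stating that each is a separate animal, so a p-value here is measured against the spread of these samples, which may be technical.

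A miRNA gene is transcribed as a longer RNA that folds into a hairpin, from which processing releases a duplex of a 5p and a 3p arm. One arm usually stays in the Argonaute complex and guides it to messenger RNAs through its seed, the bases at positions 2 to 8. The Mir212/Mir132 locus is best known in neurons, where the transcription factor CREB switches it on with activity, and miR-132 is also induced in immune cells by endotoxin. miR-132-3p is regarded as the main guide of its hairpin.

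The mature sequences show which arms could be recognised alike, and are given 5′ to 3′ with the seed in capitals (RefSeq, GRCm38.p6).
miR-132-3p: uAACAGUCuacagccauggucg
miR-212-3p: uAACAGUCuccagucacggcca
miR-132-5p: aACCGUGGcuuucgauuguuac
miR-212-5p: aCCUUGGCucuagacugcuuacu
Both 3p arms carried the seed AACAGUC, and of 1679 mature miRNAs in the sequence table these 2 were the ones with it. The 5p arms had different seeds, and their longest shared run was 5 bases.

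The hairpins show where each arm lies, with both arms in capitals.
Mir212 (chr11:75173388-75173478, plus strand): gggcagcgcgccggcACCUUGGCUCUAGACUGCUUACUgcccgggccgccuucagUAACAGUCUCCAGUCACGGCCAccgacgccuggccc
Mir132 (chr11:75173682-75173747, plus strand): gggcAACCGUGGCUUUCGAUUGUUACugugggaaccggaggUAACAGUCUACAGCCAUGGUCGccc
The hairpins were 203 bases apart. In GENCODE M21 (GRCm38) both lay within intron 1 of the non-coding transcript 1700016P03Rik, between exon 1, which ended 790 bases before Mir212, and exon 2, which began 230 bases after Mir132. These coordinates are those of the reference used here, since no build is stated for the counts.

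Lining up the 3p arms from the 5′ end, with the differing bases in capitals, shows how close miR-212-3p is to the oligonucleotide's target.
miR-132-3p: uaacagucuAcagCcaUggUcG
miR-212-3p: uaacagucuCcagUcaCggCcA
The first 9 bases were identical, and the arms differed at 5 of 22 positions, as A10C, C14U, U17C, U20C and G22A (the base of miR-132-3p, the position from its 5′ end, the base of miR-212-3p). The labels do not say which 16 bases of miR-132-3p the oligonucleotide covers. Over the 7 possible windows of 16 bases, miR-212-3p differed at 2 positions in the window starting at base 1 and at 5 in that starting at base 7.

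The libraries held 5689143 to 8734721 miRNA counts. At this depth the locus was of middling abundance in liver: 5p arms ranked 173rd to 225th among the 1908 names by mean share of counts in each group. Hepatocyte markers summed to 269615 to 646708 CPM (counts as shares of the library, scaled by edgeR's TMM factors), so the libraries carried the profile of the labelled tissue. The range of that sum was 505709 to 646708 CPM for AM132, 331268 to 510309 for AM608 and 269615 to 553811 for RCD. It thus moved with AM132 against AM608, where 1 of the 7 markers was called higher (4.04% of all tested miRNAs were), all 7 had an unadjusted p under 0.05 in that direction (105 of the 421 tested had one in either direction), and 5 of the 7 were called higher without RCD library 3. In that refit 10.2% of 422 miRNAs were called lower, and the share called higher is not given here. The part of the shift in hepatocyte markers in the results below was not tested. RCD library 3 stood apart in the 14 neuron markers, at a summed 2884 CPM against 356.9 to 628.2 in the other 23 libraries. Its hepatocyte sum was the lowest, and it was also the highest library in the mesenchymal (25343 against 9300 to 16975 CPM), erythroid (1773 against 268.5 to 1519) and leukocyte (6690 against 3495 to 6583) sums. It held 5067 counts of the neuronal miR-9-5p, where the other libraries held 11 to 317, and 81 of miR-124-3p, which had a median of 0 elsewhere. Because neurons express this locus strongly, each result that uses RCD is given with and without that library where its call or direction changes. In bulk liver, fewer cells of a type and less RNA per cell cannot be told apart.

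miR-132-3p, the guide arm aimed at, had 0 counts in each of 8 AM132 libraries. It had 92, 175.5 and 341 counts (lowest, median and highest) in AM608 and 69, 113.5 and 339 in RCD. Every AM608 and RCD library was therefore far from 0, and neither group overlapped AM132. In CPM these values were 13.1, 22 and 36.4 in AM608 and 10.4, 16.8 and 50.6 in RCD, with means of 23.3 ± 7.01 and 20.7 ± 12.7 (SD, n = 8 each). Taking 3 counts over the whole AM132 group as the limit that 0 counts allow, 0.0598 CPM, the AM132 level was lower by at least 390-fold (AM608) and at least 346.3-fold (RCD). The difference passed the edgeR quasi-likelihood test in both comparisons (adjusted p = 3.61e-10 and 3.77e-10). The values are counted reads: loss of the RNA in the liver and failure to capture it in the presence of the oligonucleotide cannot be told apart.

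miR-132-5p, released from the same hairpin, was counted in each of the 24 libraries. Its counts were 117, 161.5 and 201 in AM132, 124, 246 and 450 in AM608 and 119, 143 and 335 in RCD. The lowest and highest AM132 libraries lay below their AM608 counterparts, and the 3 groups overlapped. Mean levels were 25.3 ± 4.25 CPM for AM132, 31.1 ± 9.41 for AM608 and 22.9 ± 5.15 for RCD (SD, n = 8 each). The AM132 level differed from AM608 by −0.30 on the log2 scale (SE 0.17, edgeR adjusted p = 0.309), and against RCD it was 0.14 (SE 0.171, edgeR adjusted p = 0.532). Scaled by library totals rather than TMM factors, the latter was −0.07 (edgeR adjusted p = 0.849).

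miR-212-3p, the arm with the shared seed, was scarce, with 0, 3 and 6 counts in AM132, 2, 12.5 and 27 in AM608 and 2, 8 and 29 in RCD. AM132 library 4 had none, and the lowest AM608 and RCD libraries had as few as several AM132 libraries. Its mean level was 0.49 ± 0.284 CPM for AM132, 1.5 ± 0.831 for AM608 and 1.49 ± 1.3 for RCD (SD, n = 8 each). It was 3.06-fold lower in AM132 than in AM608 (log2 fold change −1.61, SE 0.521, edgeR adjusted p = 0.0441) and 3.04-fold lower than in RCD (−1.61, SE 0.527, edgeR adjusted p = 0.0199). The call against AM608 was lost without any 1 of AM132 libraries 1, 3, 4, 5, 6 or 8 or AM608 libraries 1, 3, 5, 7 or 8 (edgeR adjusted p = 0.0501 to 0.103), without a filter on low counts (0.0734), and with limma voom (limma adjusted p = 0.0586). The call against RCD was lost when RCD library 5 was left out (−1.20, edgeR adjusted p = 0.0689). Leaving out RCD libraries 3 and 5, chosen after their counts had been seen, gave −0.87 (edgeR adjusted p = 0.203).

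miR-212-5p, the other arm of that hairpin, was as abundant as miR-132-5p, with 87, 132 and 157 counts in AM132, 120, 221.5 and 404 in AM608 and 87, 122 and 277 in RCD. In CPM the means were 21.03 ± 4.6, 29.0 ± 8.82 and 18.9 ± 5.95 (SD, n = 8 each), and the groups overlapped. In AM132 it stood at −0.46 relative to AM608 on the log2 scale (SE 0.198, edgeR adjusted p = 0.13) and at 0.16 relative to RCD (SE 0.199, edgeR adjusted p = 0.561). With library totals the first of these passed (−0.73, edgeR adjusted p = 0.0301), a scaling under which the median of the 421 tested miRNAs was −0.21 in place of 0.05, and it also passed without AM608 library 4 (−0.58, edgeR adjusted p = 0.0443). With library totals the difference from RCD was −0.05 (edgeR adjusted p = 0.917).

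**Figure D1:**
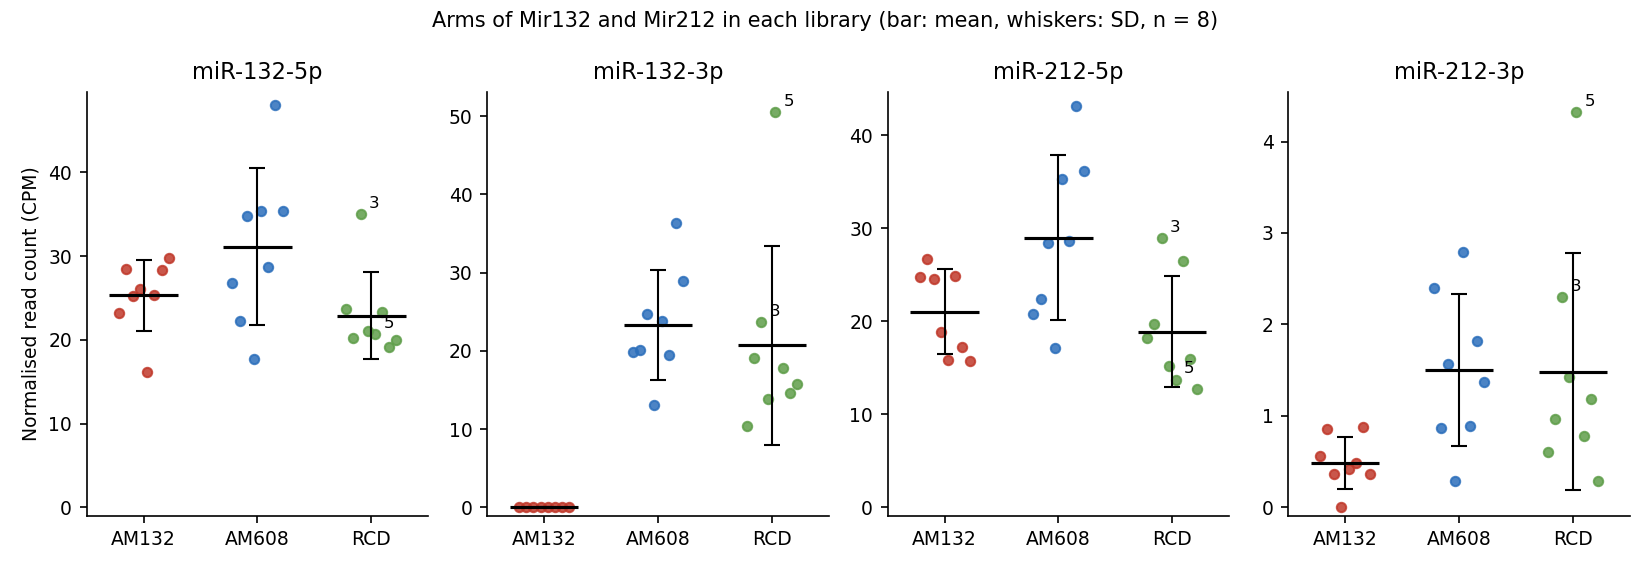
Normalised read counts (CPM, y axis) of the 4 arms in each library, by group, with points for libraries, horizontal bars for means and whiskers for SD (n = 8), and RCD libraries 3 and 5 numbered. miR-132-3p lay at 0 in AM132 and at 10.4 CPM or more elsewhere, the 5p arms overlapped between groups, and RCD library 5 was highest in both 3p arms.

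Of the 4 arms, 2 were lower in AM132 than in AM608 (miR-132-3p and miR-212-3p) and none was higher, where 12.4% of the 421 tested miRNAs were called, 8.31% as lower and 4.04% as higher. The median log2 fold change of the 421 was 0.05. In AM132 against RCD the same 2 arms were lower and none higher, where 34.2% of tested miRNAs were called, 18.8% as lower and 15.4% as higher. Both arms with the seed AACAGUC were thus called and both 5p arms were not. For miR-212 against AM608 this split hung on single libraries for the 3p arm and on the scaling for the 5p arm. The within-library ratio of its arms, given below, did not pass against AM608 (exact permutation adjusted p = 0.0967). Against RCD it did (0.0403). miR-132-3p alone of the 4 had AM132 values wholly below those of another group, as did 4.99% of tested miRNAs against AM608 and 5.70% against RCD.

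**Figure D2:**
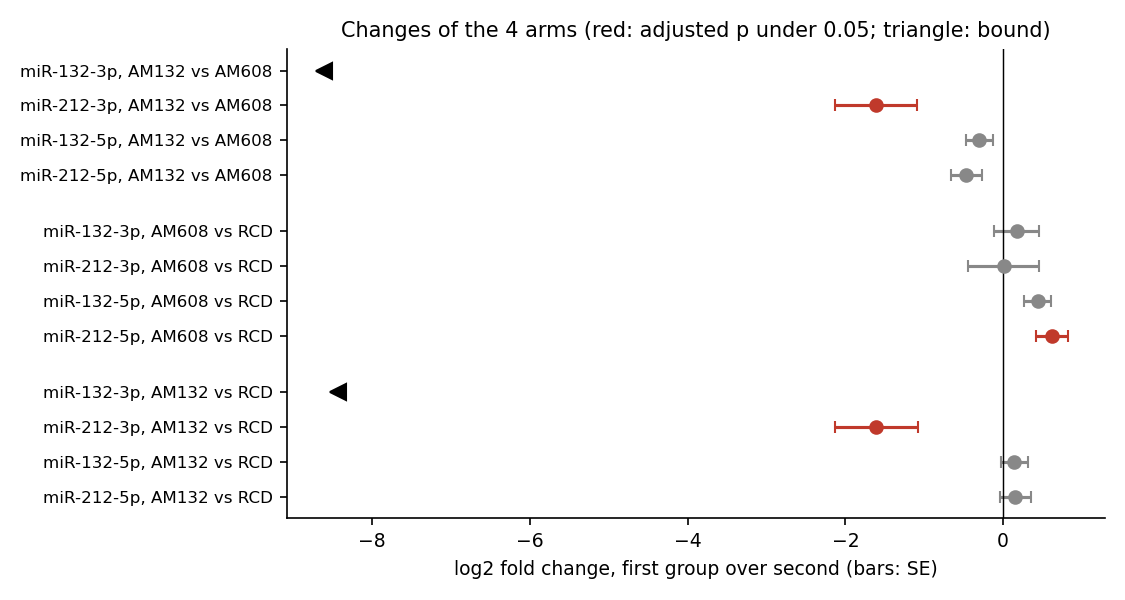
Fitted log2 fold changes (x axis) of the 4 arms in the 3 comparisons, with bars for the SE, red points for an edgeR adjusted p under 0.05 and grey points for the rest. Triangles for miR-132-3p mark the bounds of 390-fold and 346.3-fold from 0 counts in AM132, and miR-212-3p at −1.61 is the next lowest arm.

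In obese AM608 against lean RCD liver, miR-212-5p was 1.54-fold higher (log2 fold change 0.62, SE 0.199, edgeR adjusted p = 0.0195), and it was the called one of the 4 arms, where 28.7% of tested miRNAs were called, 13.5% as higher and 15.2% as lower. Its call was missed with AM608 and RCD alone in the fit (0.58, edgeR adjusted p = 0.0618). miR-132-5p stood at 0.44 on the log2 scale (SE 0.17) and missed the threshold narrowly (edgeR adjusted p = 0.0537). RCD library 3, the library high in neuron markers, had the highest miR-132-5p of its group, 35.02 CPM against 19.2 to 23.7 in the other 7. Without it the log2 fold change was 0.55 (edgeR adjusted p = 0.00797). The call was also reached without AM132 library 2 or 5 or AM608 library 1, 2, 4 or 6 (edgeR adjusted p = 0.00946 to 0.0482).

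The 3p arms were not told apart between AM608 and RCD. On the log2 scale the difference was 0.17 for miR-132-3p (SE 0.284, edgeR adjusted p = 0.686) and 0.01 for miR-212-3p (SE 0.446, edgeR adjusted p = 0.989). Both values rested on RCD library 5, which was the highest of the 24 in both arms, at 50.6 CPM of miR-132-3p and 4.33 CPM of miR-212-3p. The other RCD libraries held 10.4 to 23.6 and 0.292 to 2.3 CPM. Without RCD library 5 the differences were 0.52 and 0.45 (edgeR adjusted p = 0.0718 and 0.455). Without RCD libraries 3 and 5, both left out after their counts had been seen, miR-132-3p passed as higher in AM608 (0.63, edgeR adjusted p = 0.0211), and miR-212-3p did not (0.78, edgeR adjusted p = 0.178).

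Ratios of arms within a library do not depend on how libraries are scaled. In AM608 the 3p arm made up 40.2%, 42.6% and 47.5% of the miR-132 counts (lowest, median and highest). In RCD it made up 30.4%, 43.2% and 70.9%, and in AM132 0% in each library. Summed over AM132, 0 of 1262 miR-132 counts were 3p, which allows a share of up to 0.238%, against 42.8% in AM608 (95% exact interval 41.2 to 44.4) and 47.0% in RCD (45.0 to 48.9). Intervals and limits here cover counting error only, since the labels mention no molecular identifiers for these PCR reads. The log2 ratio of 5p to 3p (0.5 counts added to each) averaged 0.41 ± 0.14 in AM608 and 0.28 ± 0.709 in RCD (SD, n = 8 each), and with 3p at 0 counts AM132 values of 8.28 ± 0.285 follow from the depth of the 5p arm. AM132 did not overlap with either group, as held for 14% of 107 hairpins against AM608 and 10.3% against RCD (exact permutation adjusted p = 0.00111 against AM608 and 0.00151 against RCD, over the 107 with both arms tested, from a raw p of 1.55e-04, the smallest that 12870 assignments give). AM608 and RCD differed by 0.13 (exact permutation adjusted p = 0.916), and by −0.09 without RCD library 5 (0.833).

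The miR-212 hairpin was counted almost wholly from its 5p arm in each group. The 3p arm made up 1.64%, 3.89% and 10.4% of its counts in AM608, 2.25%, 5.77% and 23.97% in RCD and 0%, 2.24% and 4.84% in AM132. Summed over libraries, the 3p share was 4.9% (4.01 to 5.92) in AM608, 7.48% (6.04 to 9.15) in RCD and 2.26% (1.45 to 3.34) in AM132. The mean log2 ratio of 5p to 3p was 5.48 in AM132, 4.39 in AM608 and 3.92 in RCD. AM132 exceeded AM608 by 1.09, which did not pass (exact permutation adjusted p = 0.0967 over 107 hairpins). It did without AM132 library 7 (1.27, 0.0366) or AM608 library 4 (1.26, 0.0409). AM132 exceeded RCD by 1.56 (exact permutation adjusted p = 0.0403), a call lost without any 1 of AM132 libraries 1, 3, 4, 6 or 8 or RCD libraries 2, 3, 4, 5 or 7 (exact permutation adjusted p = 0.0542 to 0.0898). Of the 107 hairpins, 24.3% had a ratio called in AM132 against AM608 (15.9% as higher in AM132). Against RCD, 17.8% were called for AM132 (12.1% higher) and 8.41% for AM608 (2.80% higher). By size of the difference in AM132 against AM608, miR-132 ranked 1st and miR-212 ranked 11th of 107, and the median difference in either direction was 0.21.

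**Figure D3:**
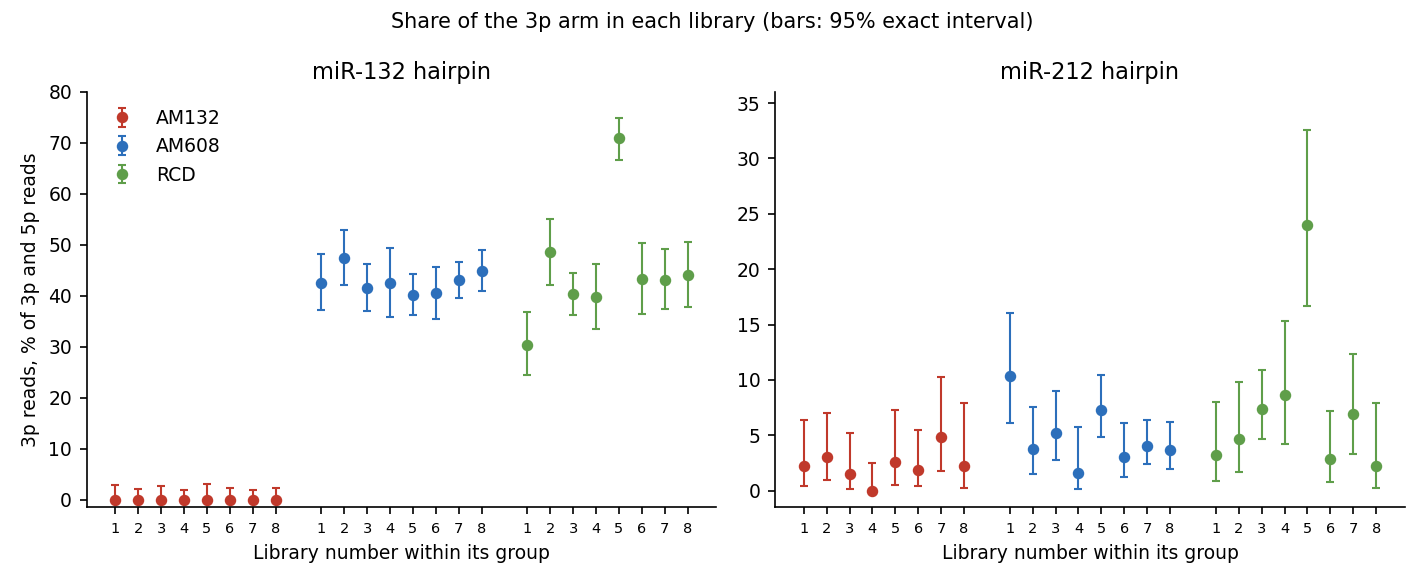
Share of 3p reads in the 3p and 5p reads of each hairpin (y axis, percent), by library number within its group, with bars for 95% exact binomial intervals. AM132 libraries lay at 0% for miR-132, AM608 libraries at 40.2 to 47.5%, and RCD library 5 stood highest for both hairpins at 70.9% and 23.97%.

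RCD library 5 leaned to the 3p arm in both hairpins. Its miR-132 counts were 339 for 3p and 139 for 5p, where the other 7 RCD libraries had more 5p than 3p. Its 3p share of 70.9% had an exact interval of 66.6 to 75.0%, above the interval of each other library. Against the median of the other RCD libraries its log2 ratio stood at −1.68 for miR-132 and −2.60 for miR-212, the 8th and 3rd largest shifts to 3p among the 107 hairpins of that library. The median shift over the 107 was 0.01, so hairpins in general did not lean to 3p there. They were scattered in both directions, with a median size of the shift of 0.49, against 0.18 to 0.52 in the other RCD libraries. Its hepatocyte markers summed to 533178 CPM, near the top of RCD. Its neuron markers summed to 375.9 CPM, near the low end, a sum made mostly of miR-128-3p (a mean of 425.6 CPM in RCD). Of the 14 listed markers 2 had no count there. Counts by library were looked up for miR-9-5p, miR-124-3p and miR-137-3p alone, so the other markers are not described. These stood at 214, 9 and 56 counts, above the medians of the 23 libraries other than RCD library 3 (29, 0 and 35). They were below the highest of those libraries (317, 27 and 130). The part of this in the arm ratio was not tested. RCD library 3 had a 3p share of 40.3% for miR-132, inside the range of AM608.

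The 5p arms of the hairpins stood near 1 to 1. The mean log2 ratio of miR-132-5p to miR-212-5p was 0.28 ± 0.376 in AM132, 0.10 ± 0.153 in AM608 and 0.31 ± 0.28 in RCD (SD, n = 8 each). No comparison passed: the difference was 0.17 for AM132 against AM608, −0.21 for AM608 against RCD and −0.03 for AM132 against RCD (exact permutation p adjusted over the 3 = 0.384, 0.263 and 0.832). Without RCD library 6 the difference of AM608 from RCD passed (−0.28, exact permutation adjusted p = 0.0438). The arms, which are 22 or 23 bases long, were ordered by mean CPM in AM608 with miR-132-5p highest, then miR-212-5p, then the 3p arm of miR-132, and miR-212-3p far below. In RCD the means of these 3 arms, 18.9 to 22.9 CPM, lay within 1 SD of each other, and the order of the lower pair turned on RCD library 5. Without it miR-212-5p averaged 19.6 ± 6.03 CPM and miR-132-3p 16.4 ± 4.25 (SD, n = 7). Ligation of adapters can favour some ends, so an order between arms is one of counted reads.

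The arms varied together between libraries to different degrees. Over the 16 AM608 and RCD libraries, log2 CPM of miR-132-5p and miR-212-5p had a Pearson r of 0.90 and a Spearman rho of 0.89 (permutation adjusted p = 1.2e-04 for both, over 6 pairs of arms). Without the 2 libraries farthest from the median of miR-132-5p, r was 0.84. Within AM608 r was 0.94 and rho 0.95 (exact permutation adjusted p = 0.00283 and 0.00685, n = 8). Within RCD r was 0.77 and rho 0.62 (exact permutation adjusted p = 0.0651 and 0.513, n = 8). Within AM132 r was 0.22 and rho −0.07 (exact permutation adjusted p = 0.76 and 0.977 over 3 pairs, n = 8), and the difference between groups was not tested. AM608 library 7, with the most counts of 3 of the 4 arms, and AM608 library 4, with the fewest of each arm in its group, lay at the ends of this line.

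miR-132-3p followed miR-132-5p closely in AM608, with an r of 0.95 and a rho of 0.88 (exact permutation adjusted p = 0.00305 and 0.0217, n = 8). In RCD r was 0.10 and rho 0.05 (exact permutation adjusted p = 0.933 and 0.935, n = 8). That value depended on single libraries: r was 0.50 without RCD library 5, −0.24 without RCD library 3 and −0.37 without both, and 0.82 without the 2 libraries farthest from the median of miR-132-3p. Over both groups r was 0.53 and rho 0.64 (permutation adjusted p = 0.069 and 0.0181, n = 16), and r was 0.85 without RCD library 5 and 0.94 without the 2 farthest libraries. The 3p arms had an r of 0.73 and a rho of 0.72 over both groups (permutation adjusted p = 0.00354 and 0.00615, n = 16), and an r of 0.59 without the 2 libraries farthest from the median of miR-132-3p. miR-212-3p, with 2 to 29 counts in these libraries, had an r of 0.30 with miR-212-5p from its own hairpin (permutation adjusted p = 0.256, rho 0.32, permutation adjusted p = 0.231, n = 16).

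**Figure D4:**
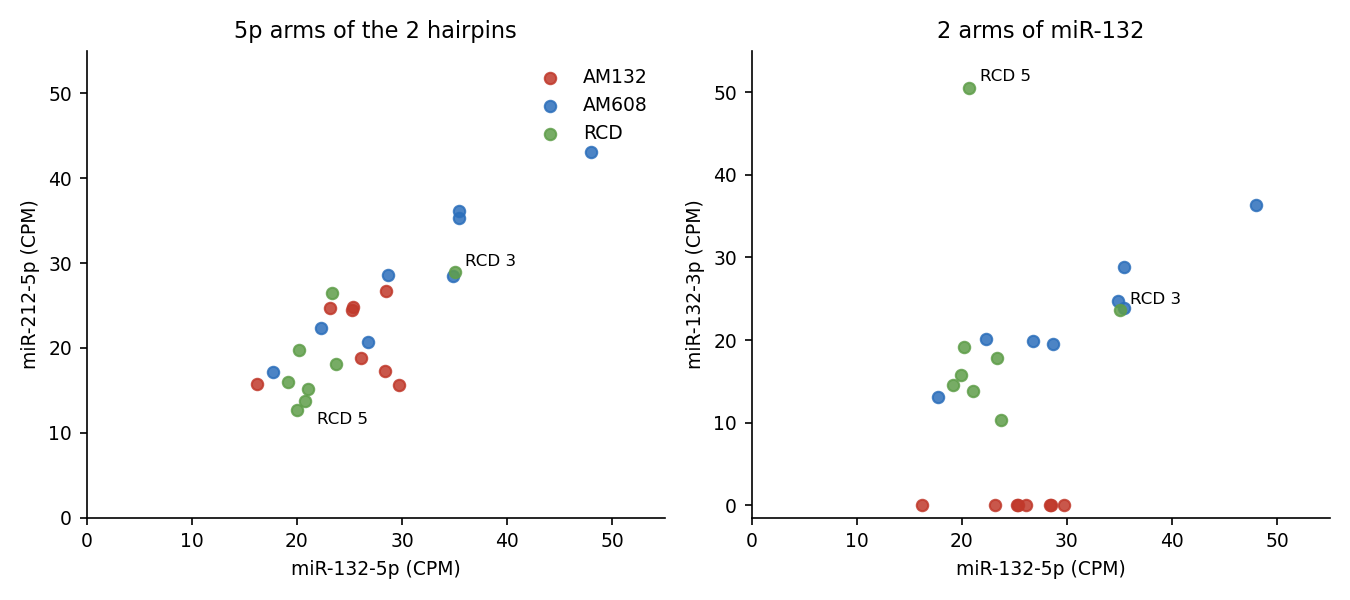
CPM of miR-212-5p (left) and of miR-132-3p (right) against CPM of miR-132-5p in each library, coloured by group, with RCD libraries 3 and 5 named. The 5p arms rise along one line in AM608 (r = 0.94), and RCD library 5 lies off the line of the miR-132 arms at 50.6 CPM of miR-132-3p.

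By Pearson r of log2 CPM over the same 16 libraries, given as a description, the miRNA most like miR-132-5p was miR-212-5p, and the reverse also held among 420 others. Next for miR-132-5p came miR-146b-5p (r = 0.89), a miRNA induced with inflammation, and miR-342-5p (0.82), made from an intron of Evl. For miR-212-5p they were miR-342-5p (0.87) and miR-146b-5p (0.85). These values changed little without RCD library 3 (0.89 and 0.80 for miR-132-5p, 0.88 and 0.87 for miR-212-5p). miR-132-3p was most like miR-342-3p (0.79), miR-671-5p (0.74) and the mesenchymal miR-214-3p (0.74). Without RCD library 3 miR-214-3p came 1st (0.80) and miR-671-5p 7th (0.74). miR-212-3p was most like miR-671-5p (0.80), miR-132-3p (0.73) and miR-129-1-3p (0.69). Libraries share their scaling and cell mix, which can raise any of these values.

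Of 10 miRNAs listed for the response to endotoxin, 7 were tested. None was called in AM132 against AM608 by edgeR (1 had an unadjusted p under 0.05), where 12.4% of the 421 tested miRNAs were. Against RCD 1 of the 7 was called, miR-21a-5p, a miRNA of injury and growth. It was lower in AM608 than in RCD (−0.68, SE 0.11, edgeR adjusted p = 3.18e-05) and in AM132 than in RCD (−0.56, SE 0.11, edgeR adjusted p = 2.71e-04). Of all tested miRNAs, 15.2% and 18.8% were lower in these comparisons. The list's median log2 fold change was −0.17 in AM132 against AM608, −0.13 for AM608 over RCD and −0.21 for AM132 over RCD. Those of all tested miRNAs were 0.05, −0.03 and 0.03. miR-146b-5p, like the 5p arms, had its highest mean in AM608, but unlike theirs its AM132 mean lay below that of RCD. Its means were 292.4 ± 137.6 CPM in AM608, 187.6 ± 30.3 in AM132 and 217.1 ± 96.2 in RCD (SD, n = 8 each). Neither difference from AM608 passed (edgeR adjusted p = 0.0785 for AM132 and 0.182 for RCD). Without RCD library 3 both passed, at −0.67 for AM132 against AM608 and 0.65 for AM608 against RCD (edgeR adjusted p = 0.0133 and 0.011).

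Of 10 miRNAs listed as regulated by neuronal activity, 5 were tested. Of these 1, miR-34a-5p, a target of p53, was called lower in AM132 than in AM608 (−0.75, SE 0.153, edgeR adjusted p = 9.15e-04), where 8.31% of tested miRNAs were. In AM608 against RCD it was called higher (0.52, SE 0.153, edgeR adjusted p = 0.0105), and miR-134-5p and miR-9-5p were lower (−2.74 and −4.27, edgeR adjusted p = 6.48e-06 and 4.53e-04). Of tested miRNAs 13.5% were higher and 15.2% lower there. miR-134-5p and miR-9-5p were also lower in AM132 than in RCD, where 18.8% of tested miRNAs were. Of the 14 neuron markers, 6 were tested. Between AM132 and AM608 edgeR called none (0 at an unadjusted p under 0.05), where 12.4% of tested miRNAs were called. Relative to RCD 3 of the 6 were lower in AM608 and 3 in AM132, where 15.2% and 18.8% of tested miRNAs were lower. Without RCD library 3, a refit of the lists added after the data were seen, 2 of the 6 neuron markers were lower in AM608 than in RCD (miR-9-5p at −2.16 and miR-137-3p at −0.97, edgeR adjusted p = 9.78e-04 and 0.00364) and 3 were higher (miR-128-3p, miR-129-5p and miR-218-5p). Of the 422 miRNAs tested in that refit, 67 were lower (15.9%) and 66 higher. miR-218-5p turned from −2.96 to 1.13 (edgeR adjusted p = 0.0274 and 0.0073). In AM132 against RCD miR-9-5p and miR-137-3p then remained lower, where 18% of the 422 were lower. In AM132 against AM608 miR-129-5p was then called lower (−0.63, edgeR adjusted p = 0.0215), where 10.2% of the 422 were. miR-134-5p and miR-9-5p of the activity list stayed lower than in RCD in both comparisons without that library.

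The tested miRNAs closest in sequence to miR-132-3p were looked up because the oligonucleotide is complementary to it. Of 421 tested miRNAs, 367 had a RefSeq mature sequence. Leaving out miR-132-3p, 3 shared an unbroken run of 8 or more bases with it, shown in capitals, and 363 shared 7 or fewer, with a median of 4.
miR-212-3p: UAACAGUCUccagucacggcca
let-7f-2-3p: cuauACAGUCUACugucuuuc
miR-28a-5p: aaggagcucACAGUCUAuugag
The run lay at bases 1 to 9 of miR-132-3p for miR-212-3p, 3 to 11 for let-7f-2-3p and 3 to 10 for miR-28a-5p.

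All 3 were lower in AM132 than in AM608, where 8.31% of tested miRNAs were. let-7f-2-3p, a passenger strand of a let-7 hairpin, had 0, 4 and 16 counts in AM132 (lowest, median and highest), 38, 44 and 60 in AM608 and 28, 35 and 62 in RCD, with no overlap between AM132 and either group. It was 6.68-fold lower than in AM608 (log2 fold change −2.74, SE 0.434, edgeR adjusted p = 4.08e-05). miR-28a-5p ran at 154 to 248.5 CPM in AM132 and 267.6 to 347.1 in AM608, again without overlap. In RCD it ran at 201.8 to 352.5 CPM and overlapped AM132. AM132 values lay wholly below AM608 for 4.99% of tested miRNAs and wholly below RCD for 5.70%. miR-28a-5p was 1.58-fold lower in AM132 than in AM608 (−0.66, SE 0.0973, edgeR adjusted p = 1.46e-05). Its opposite arm, miR-28a-3p, which shares no such run, averaged 284.9 ± 27.5 CPM in AM132 and 281.7 ± 17.9 in AM608 (SD, n = 8 each, log2 fold change 0.02, edgeR adjusted p = 0.917). let-7f-2-3p and miR-28a-5p were also lower in AM132 than in RCD (−2.84 and −0.57, edgeR adjusted p = 1.54e-05 and 5.26e-05). Neither was called in AM608 against RCD (−0.10 and 0.09, edgeR adjusted p = 0.855 and 0.536).

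By the unbroken run, the share lower in AM132 than in AM608 did not rise steadily below 8 bases. It was 16 of 284 (5.63%) with up to 4 bases and 9 of 57 (15.8%) with 5. With 6 bases it was 1 of 18 (5.56%), and with 7 it was 1 of 4. Another measure, the longest run with at most 1 mismatch, was chosen after the 3 had been seen. By this measure 18 of 341 miRNAs (5.28%) with up to 6 identical bases were lower in AM132 than in AM608. With 7 identical bases 6 of 17 were lower (35.3%) and with 8 bases 3 of 5 (60.0%), namely miR-30e-3p (−0.80, edgeR adjusted p = 1.21e-07), let-7c-2-3p (−3.89, 8.31e-12) and let-7a-1-3p (−3.89, 8.31e-12). The latter pair had nearly equal values and may be counts of the same reads. The same holds for miR-199a-3p and miR-199b-3p, 2 of the 6 lower with 7 bases (−0.74 each, edgeR adjusted p = 0.0045 each). Also among these 6 were let-7b-3p and let-7f-1-3p, so let-7 3p strands recur in the classes with 7 and 8 bases. In AM608 against RCD, which holds no AM132 library, 15.2% were lower with up to 6 bases, 11.8% with 7 and 0 of 5 with 8. These classes are small and were given no test, and what sets the levels was not tested.

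**Figure D5:**
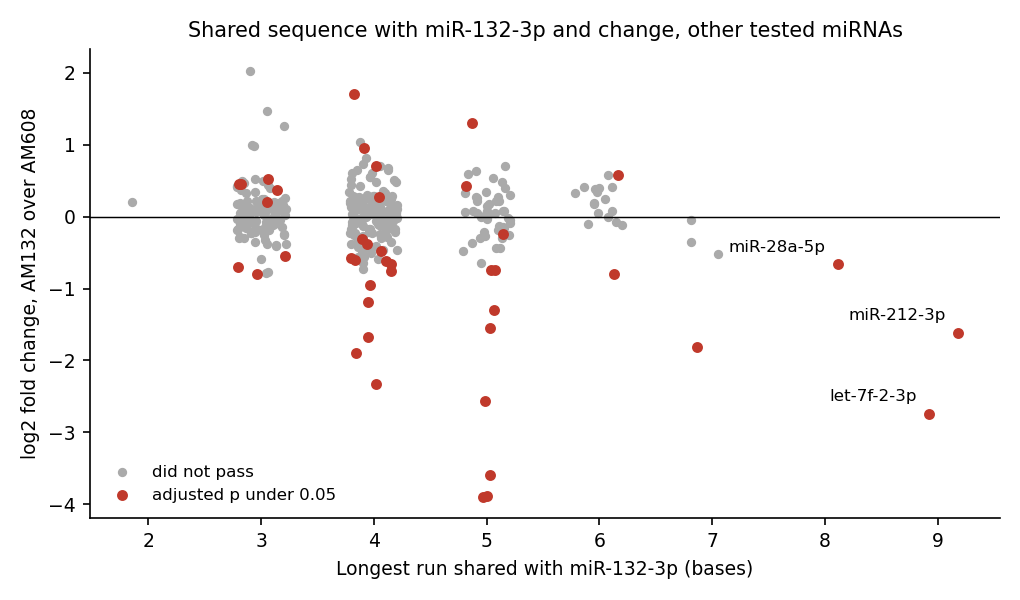
Longest unbroken run of bases shared with miR-132-3p (x axis, bases, points spread sideways for view) against the log2 fold change in AM132 over AM608 (y axis) for 366 other tested miRNAs with a sequence, red for an edgeR adjusted p under 0.05. The 3 miRNAs with 8 or more shared bases, named, lie at −0.66, −1.61 and −2.74, and miRNAs with 4 or 5 shared bases lie on both sides of 0. The lowest points are not named and share 5 bases: let-7c-2-3p and let-7a-1-3p (both −3.89) and miR-582-5p (−3.60).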

How the data were processed

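Small RNA libraries of 24 livers were made from 300 ng of total RNA (RIN above 8.4) with the NEBNext kit and run on a NextSeq instrument, per the labels' protocols. The authors deposited raw read counts per mature miRNA (1908 names, 584 without a count). FastQC is named per the submitters' processing notes, while for trimming, aligner, build and counting rule the entry is: not given in the sources used here. Without the rule, reads of near-identical miRNAs could be split or shared. Each column was assigned to its sample by the group and number in its name. The table of tRNA fragments was not used here. The closest library pair of a group differed by a chi-square of 25.7 per degree of freedom, so none was counted as a duplicate.

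The test was edgeR 4.0.16 under R 4.3.3 (filterByExpr, TMM, robust quasi-likelihood, group as the term, all 24 libraries), with Benjamini-Hochberg adjustment over 421 miRNAs and a threshold of 0.05. CPM are shares of the TMM-scaled counts of tested miRNAs, and log2 CPM used a prior of 2 counts. An SE is the log2 fold change over the square root of F. Ratios added 0.5 counts and two-sided exact permutation tests over group labels compared them (numpy 2.4.6), adjusted over 107 hairpins whose arm names differ in 5p and 3p alone, or over 3 comparisons. Correlations used 100000 resamples, or all pairings with 8 libraries. The fit was tested on simulated data. Alternatives were RLE factors, library totals, filters, DESeq2 1.42.0, limma voom 3.58.1, fits of 2 groups, the replicate block, a pseudocount of 1 and left-out libraries. The text names the 4 arms, the 3 miRNAs most correlated with each, those sharing 8 or more bases with miR-132-3p, and called members of lists. Members and lists were chosen with earlier results of these data known. The leukocyte, endothelial, mesenchymal and erythroid marker lists had 4, 2, 5 and 3 members tested. Of these 0, 0, 1 and 0 were lower and none higher in AM132 against AM608 by edgeR (0, 0, 1 and 0 at an unadjusted p under 0.05). Of all tested miRNAs 8.31% were lower and 4.04% higher.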

Additional observations from a re-analysis of the deposited data

Results flagged for a closer look

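In 20 sets of 8 values (arms and ratios by group), 4 held a library whose gap to its nearest neighbour, as a share of the range, exceeded Dixon's 95% critical value, where chance gives about 1 in 20. miR-132-3p in RCD library 5 was 50.6 CPM, the highest of its group. The log2 ratio of miR-132-5p to miR-132-3p in the same library was −1.28, the lowest of its group. miR-132-5p in RCD library 3, the library with the highest neuron marker sum, was 35.02 CPM. The log2 ratio of miR-212-5p to miR-212-3p in AM132 library 4 was 8.19, set by 0 counts of the 3p arm with 0.5 added.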

How the results depend on the processing

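The 0 counts of miR-132-3p in AM132 passed the test against AM608 and RCD under each alternative run, as did let-7f-2-3p and miR-28a-5p where they were tested. Same-numbered libraries did not deviate together (correlations −0.42 to 0.40, each library correlating best with its own number in 1, 1 and 2 of 8 pairs by comparison), so numbers were not taken as pairs. With the replicate block 47, 109 and 132 miRNAs were called in 3 comparisons (AM132 against AM608, then AM608 and last AM132 against RCD), and of the calls on the arms and ratios it changed that of the miR-212 arm ratio in AM132 against RCD alone (1.56, adjusted p = 0.0836). In the order just given, 52, 121 and 144 miRNAs were called with the chosen settings and 44 to 56, 112 to 133 and 127 to 154 with each library left out. Library totals gave 91 for the first (8 higher and 83 lower, in place of 17 and 35) and a split of 27 higher and 105 lower for the last (65 and 79). The fit of 2 groups gave 87 for the first, and a mean CPM of at least 10 gave 94 for the last.

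In AM132 against AM608, miR-212-3p missed the threshold without a filter (−1.615), with limma voom (−1.55) and without RCD library 3 and AM132 library 8 (−1.60), and ran from −1.80 to −1.40 over the left-out libraries. miR-212-5p passed with library totals (−0.73) and ran from −0.58 to −0.40. The miR-212 arm ratio ran from 0.70 to 1.27.

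In AM608 against RCD, miR-132-5p passed without RCD library 3 and AM132 library 8 (0.55) and without RCD libraries 3 and 5 (0.57), a pair chosen after seeing the data, and ran from 0.36 to 0.55. miR-132-3p passed without that pair (0.63) and ran from 0.08 to 0.52. miR-212-3p changed sign with RLE factors (−0.030), DESeq2 (−0.028) and the fit of 2 groups (−0.036), from −0.18 to 0.45 over left-out libraries. miR-212-5p missed the threshold in the fit of 2 groups (0.58) and ran from 0.54 to 0.74. The miR-132 arm ratio was −0.085 without RCD libraries 3 and 5 (−0.095 to 0.26). The ratio of the 5p arms ran from −0.28 to −0.16. let-7f-2-3p changed sign without RCD library 4 (0.026) or 8 (0.014).

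In AM132 against RCD, library totals reversed miR-132-5p (−0.069, left-out range 0.09 to 0.23) and miR-212-5p (−0.046, range 0.07 to 0.24). miR-212-3p missed the threshold with limma voom (−1.41), without RCD library 3 and AM132 library 8 (−1.46) and without RCD libraries 3 and 5 (−0.87), ranging from −1.79 to −1.20. The miR-212 arm ratio missed it without the same pairs (1.57 and 1.13), ranging from 1.17 to 1.74. The ratio of the 5p arms was 0.0061 without RCD libraries 3 and 5 and ran from −0.13 to 0.018. The cause of these changes was not tested. No value could be had for let-7f-2-3p or miR-212-3p when a mean of 10 CPM was required, nor for miR-212-3p in AM132 with 2 groups in the fit or, against AM608, with DESeq2. With a median of 3 counts in AM132, miR-212-3p is limited by depth.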
